A study of Mus musculus with 4 samples.

Results

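The 7 genes described here, *Sohlh1* (ENSMUSG00000059625), *Sohlh2* (ENSMUSG00000027794), *Lhx8* (ENSMUSG00000096225), *Figla* (ENSMUSG00000030001), *Dmrt1* (ENSMUSG00000024837), *Dmrtb1* (ENSMUSG00000028610) and *Dmrtc2* (ENSMUSG00000011349), encode germline transcription factors. They were chosen by symbol from the 32285 genes measured, and no measured value entered the rule. Single-cell RNA-seq libraries came from testes at postnatal day 15 of 2 wild-type and 2 *Meioc*-null mice on the C57BL/6N background. MEIOC is a germ-cell protein that acts with the RNA helicase YTHDC2 and is needed for the change from mitosis to meiosis. A replicate number stood for a batch and for 1 littermate pair, with 1 testis per pup, so p-values measure the spread between 2 animals per genotype. The null allele was present in every cell of the mutant. According to the methods of the study, mice of both genotypes were also heterozygous for a targeted *Hspa2* allele and homozygous for a *ROSA26*-tdTomato reporter whose floxed stop was intact, and much of the interstitium was discarded during dissociation.

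Germline transcription factors are switched on and off in a set order as a spermatogonium leaves the stem-cell state and enters meiosis. SOHLH1 and SOHLH2 are basic helix-loop-helix proteins that bind DNA elements called E-boxes and promote spermatogonial differentiation, and both also act in oocytes. FIGLA, another basic helix-loop-helix protein, drives zona pellucida genes in the ovary, where the LIM-homeodomain protein LHX8 is also needed. DMRT1, DMRTB1 (also called DMRT6) and DMRTC2 (also called DMRT7) share the DM DNA-binding domain. DMRT1 restrains the retinoic acid response and *Stra8* in spermatogonia and maintains Sertoli cell identity, DMRTB1 acts as mitosis gives way to meiosis, and DMRTC2 is needed in pachytene spermatocytes.

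In the mouse genome (GRCm38, GENCODE annotation) *Sohlh1* lies at chr2:25842995-25847248, *Sohlh2* at chr3:55182028-55209957, *Lhx8* at chr3:154306294-154330659, *Figla* at chr6:86016171-86020996, *Dmrt1* at chr19:25505618-25604329, *Dmrtb1* at chr4:107676290-107684230 and *Dmrtc2* at chr7:24870057-24877651. RefSeq promoters (GRCm38.p6) matched 6 of the 7 genes. The 250 bases before the start are shown for *Sohlh1*, the gene with the earliest maximum, for *Figla*, the gene higher in wild-type cells at meiotic entry, and for *Dmrtb1*, which had the largest called difference in the other direction. They run 5′ to 3′ on the strand of the gene, and capitals mark E-boxes, here the letters CANNTG searched on both strands. The stretches are chr2:25847249-25847498 on the minus strand, chr6:86016941-86017190 on the plus strand, which lies in an intron of a longer annotated *Figla* transcript, and chr4:107684231-107684480 on the minus strand.
Sohlh1: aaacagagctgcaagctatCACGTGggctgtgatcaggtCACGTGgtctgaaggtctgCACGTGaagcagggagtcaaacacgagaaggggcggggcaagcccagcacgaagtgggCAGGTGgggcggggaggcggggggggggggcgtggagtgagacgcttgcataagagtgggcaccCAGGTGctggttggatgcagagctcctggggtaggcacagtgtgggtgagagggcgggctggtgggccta
Figla: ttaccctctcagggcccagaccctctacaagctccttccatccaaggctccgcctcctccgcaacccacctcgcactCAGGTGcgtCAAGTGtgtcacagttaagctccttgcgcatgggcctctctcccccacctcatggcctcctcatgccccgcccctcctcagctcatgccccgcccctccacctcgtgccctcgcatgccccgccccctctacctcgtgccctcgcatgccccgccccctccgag
Dmrtb1: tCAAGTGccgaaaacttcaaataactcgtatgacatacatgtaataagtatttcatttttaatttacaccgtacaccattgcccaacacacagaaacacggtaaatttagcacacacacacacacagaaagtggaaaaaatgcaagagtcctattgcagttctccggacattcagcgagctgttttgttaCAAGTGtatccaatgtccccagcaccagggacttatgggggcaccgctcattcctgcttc
The *Sohlh1* stretch held 5 E-boxes, of which those at -231, -211 and -192 bases from the start read CACGTG, and 1.15% of 32851 promoters of the same length held 5 or more. The *Figla* and *Dmrtb1* stretches held 2 each, and a second RefSeq promoter of *Dmrtb1*, not shown because it lies inside the annotated gene, held 3. Of all promoters, 66.2% held at least 1. The letters ACANTGT, with N any base, were searched as a loose form of a core of sites bound by DM-domain proteins. A match that reads ACAGTGT was in the *Sohlh1* stretch at -34, and 6.47% of all promoters held a match to ACANTGT. The letters TAATTA, a core read by homeodomain proteins, were in none of the 6 members' promoters and in 4.84% of all. A match describes these letters only.

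Libraries held 158291903 to 190455307 UMIs, the molecules counted after amplification copies are merged, over 11986 to 16486 barcodes. Barcodes with more than 1000 detected genes and under 10% mitochondrial UMIs were kept and likely doublets removed, which left 5644 and 7505 wild-type and 6554 and 6522 *Meioc*-null cells. Pairs of libraries shared 12 to 16 of the barcodes that passed these limits. Levels are given as CPM, the UMIs of a gene scaled to a common total by all UMIs, summed over the cells of a library and cluster; the reads are 3′ tags, so no correction for gene length was made. The tags of *Meioc* did not check the labels, because they were present in both genotypes, at 293 and 291 CPM over all wild-type and 343 and 283 CPM over all *Meioc*-null germ cells.

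Wild-type germ cells were clustered without the 7 genes, and *Meioc*-null germ cells were placed with their nearest wild-type cells. This placing allowed no cluster of *Meioc*-null cells alone, whereas the study described a mutant-only cluster. Whether cells of both genotypes stood at the same point within a cluster was not tested, which bears on every genotype difference below. In a tree joining the nearest cluster means, the 11 clusters formed a line from 1 to 7, from which cluster 8 branched on 1 side and clusters 9, 10 and 11 followed on the other. Branches named below are those of this tree, and whether wild-type cells split there was not tested. Cluster 1 was undifferentiated-spermatogonia-like (6 of 7 markers, beside 4 of 5 differentiating ones) and clusters 2 to 5 differentiating-spermatogonia-like (4 or 5 of 5). Clusters 2 and 5 also had 3 of 4 preleptotene markers, and clusters 3, 4 and 5 had 5 of 8 early-spermatocyte markers. Cluster 7 was preleptotene-like (4 of 4, beside 6 of 8 early-spermatocyte markers). Clusters 8 and 9 were early-spermatocyte-like (7 and 8 of 8), and cluster 8 also had 3 of 4 preleptotene markers. Clusters 10 and 11 each had 7 of 8 early-spermatocyte and 5 of 8 pachytene markers. They are called early-spermatocyte-like and pachytene-like, with pachytene markers in a mean of 46.0% and 63.3% of their cells, so these 2 names differ only by degree. Cluster 6 had 3 of 5 differentiating and 3 of 4 preleptotene markers and stayed unnamed. Clusters 10 and 11 held 180 to 445 wild-type cells per library and 0 *Meioc*-null cells, so the genotypes were compared in clusters 1 to 9, where each library had at least 227 cells. That 0 depends on the placing. With the variable genes that differed between genotypes left out of it, cluster 10 took 2 and 1 *Meioc*-null cells. Cluster 8 then took 787 and 663 *Meioc*-null cells, against 376 and 392 in the main placing. Cluster 7 took 1251 and 856 of them, against 1663 and 1186. Wild-type cells of cluster 8 moved less, to 240 and 397, against 235 and 366. The study, in its own clustering, designated some *Meioc*-null cells as pachytene spermatocytes. A further cluster of low UMI content, led by *Rhox10*, *Afp* and *Sohlh1*, was kept apart from the germ cells. There *Sohlh1* was at 212 and 237 CPM in wild-type libraries, against 244 and 268 CPM in the *Meioc*-null ones.

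In wild-type cells the highest cluster means of the 7 factors were spread along the clusters. *Sohlh1* was highest in cluster 1, *Lhx8* in cluster 2, *Dmrt1* in cluster 3 and *Dmrtb1* in cluster 4. *Figla* was highest in cluster 8, *Dmrtc2* in cluster 11, and *Sohlh2* had maxima in clusters 2 and 10. For *Dmrt1* and *Dmrtb1* the libraries of clusters 3 and 4 overlapped, so these 2 maxima cannot be put in order. Cluster 8 is a side branch, so the tree gives no order between the maximum of *Figla* and those in clusters 10 and 11. *Sohlh2*, *Figla* and *Dmrtb1* each had a trough between an early and a late maximum. These levels are a description with no test, because the clusters came from the same cells.

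**Figure D1:**
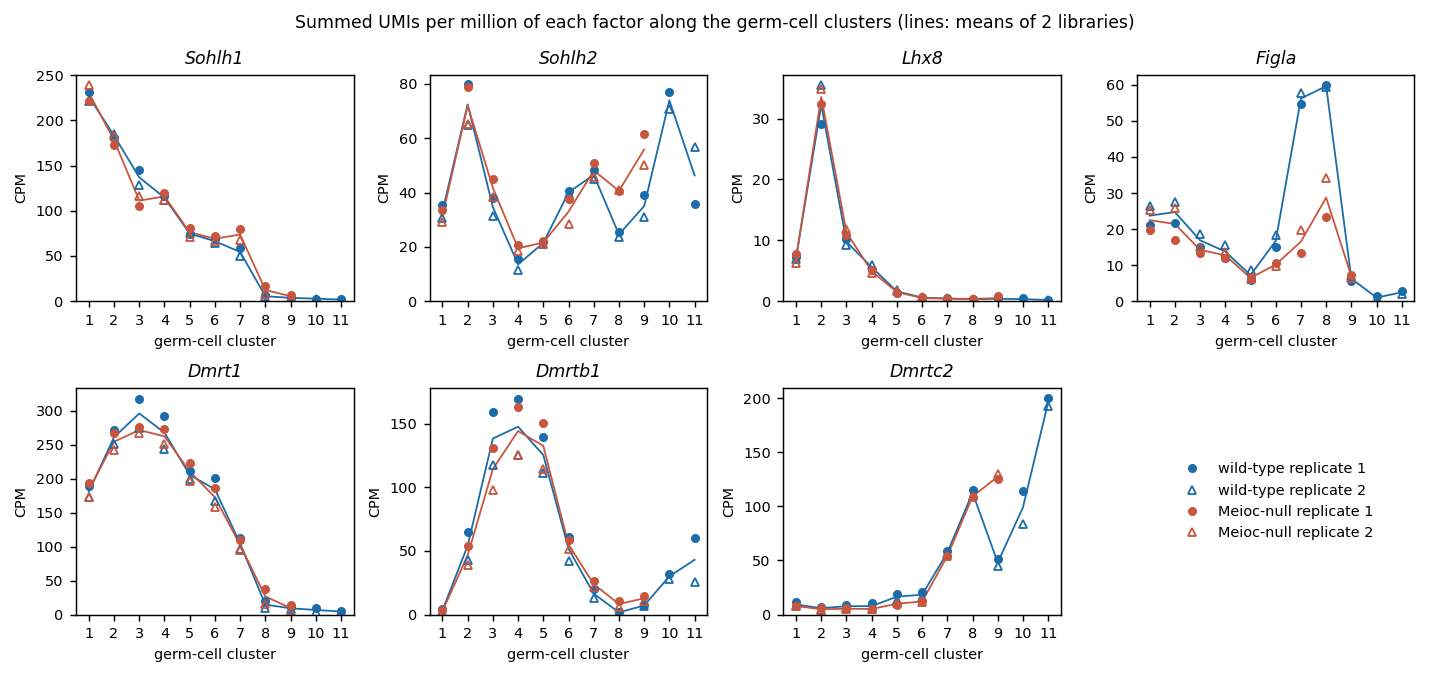
CPM (y axis) of each factor in germ-cell clusters 1 to 11 (x axis), with 1 point per library (blue, wild-type; red, Meioc-null; filled circles, replicate 1; open triangles, replicate 2) and lines through the means of 2 libraries. Wild-type Figla stands at 54.8 to 59.9 CPM in clusters 7 and 8, above the Meioc-null points, and the Meioc-null lines end at cluster 9.

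*Sohlh1* was at 231 and 221 CPM in cluster 1 in the 2 wild-type libraries. It was at 74.7 and 75.0 CPM in cluster 5, at 58.4 and 50.5 CPM in cluster 7 and at 6.61 and 4.49 CPM in cluster 8. In the order of their numbers, each cluster lay below the one before it, and the libraries of consecutive clusters did not overlap. Peritubular myoid-like cells, which should lack the gene, had 2.67 to 5.94 CPM. Wild-type values in clusters 9, 10 and 11 were not above that range, and those in cluster 8 were near it. The part of free RNA in these low values was not tested.

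Its partner *Sohlh2* took another course, with 35.4 and 30.7 CPM in cluster 1, 80.1 and 64.9 CPM in cluster 2 and 15.6 and 11.5 CPM in cluster 4. It was then at 48.2 and 44.9 CPM in cluster 7, 25.7 and 23.5 CPM in cluster 8 and 77.1 and 70.9 CPM in cluster 10, where *Sohlh1* was at 2.75 and 2.90 CPM. The maxima in clusters 2 and 10 overlapped between libraries and could not be ranked. Over the 22 points of 11 clusters and 2 wild-type libraries, the log2 levels of *Sohlh1* and *Sohlh2* had a Pearson correlation of -0.22, and those of *Sohlh1* and *Dmrt1* one of 0.98. Points of a library share its depth, and the correlations are descriptions.

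*Lhx8* had a narrow window. It was at 7.33 and 6.85 CPM in cluster 1, 29.1 and 35.5 CPM in cluster 2 and 10.2 and 9.27 CPM in cluster 3, and at 1.82 CPM or less in wild-type cells from cluster 5 on. The libraries of cluster 2 did not overlap those of any other cluster. A UMI of *Lhx8* was found in 55.9% and 58.0% of the wild-type cells of cluster 2, at median depths of 29382 and 28860 UMIs, and in 0.54% and 0.36% of peritubular myoid-like cells, at 9751 and 10056 UMIs. With each cell thinned to 5000 UMIs, the shares were 13.0% and 16.9% in cluster 2 and 3.09% and 2.40% in cluster 1.

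*Figla* had an early and a late phase. It was at 21.2 and 26.3 CPM in cluster 1, 21.8 and 27.6 CPM in cluster 2 and 5.93 and 8.57 CPM in cluster 5. From 15.1 and 18.4 CPM in cluster 6 it reached 54.8 and 57.7 CPM in the preleptotene-like cluster 7 and 59.9 and 59.4 CPM in cluster 8, and was at 5.67 and 6.86 CPM in cluster 9. The levels of clusters 7 and 8 were more than those of all other clusters in both libraries. A UMI of *Figla* was found in 44.6% and 45.0% of wild-type cells of cluster 7; thinned to 5000 UMIs the shares were 25.6% and 25.9%, against 0.19% of peritubular myoid-like cells of wild-type replicate 2 and 0 of 536 cells of replicate 1, which allows a share of cells with a UMI, not of expressing cells, of up to 0.56%.

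*Dmrt1* was broad, with 189 and 173 CPM in cluster 1, 318 and 274 CPM in cluster 3, 112 and 96.1 CPM in cluster 7 and 20.2 and 8.98 CPM in cluster 8. Cluster 3 lay above cluster 2, and cluster 4 overlapped both. Sertoli-like cells, a known site of *Dmrt1* expression, had 81.9 and 65.8 CPM in wild-type libraries, against 76.0 and 76.3 CPM in the *Meioc*-null ones. Peritubular myoid-like cells had 4.94 to 8.21 CPM.

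*Dmrtb1* was at 4.64 and 1.91 CPM in cluster 1, near the 1.33 to 4.02 CPM of peritubular myoid-like cells. It was at 65.1 and 43.1 CPM in cluster 2, 169.6 and 125 CPM in cluster 4, 20.1 and 12.7 CPM in cluster 7 and 2.33 and 1.06 CPM in cluster 8. A second phase followed, with 31.9 and 28.1 CPM in cluster 10 and 60.4 and 25.5 CPM in cluster 11. Clusters 3, 4 and 5 overlapped and could not be ranked. In each of clusters 1 to 9, replicate 1 was above replicate 2 in both genotypes.

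*Dmrtc2* had the latest maximum. It was at or below 20.9 CPM through cluster 6 and at 58.3 and 56.1 CPM in cluster 7. It was at 115 and 109.6 CPM in cluster 8, 51.7 and 44.5 CPM in cluster 9, 114 and 83.6 CPM in cluster 10 and 199.7 and 193 CPM in cluster 11. Cluster 11 lay above all others, whereas clusters 8 and 10 overlapped. Since cluster 8 was a side branch, no order between clusters 8 and 9 is given by the tree of clusters.

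**Figure D2:**
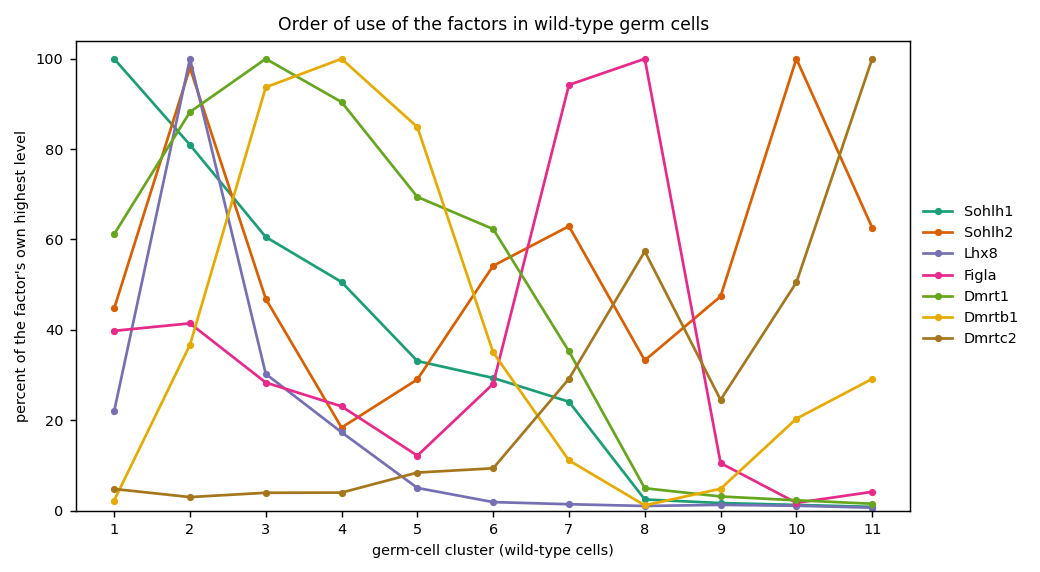
Mean of the 2 wild-type libraries in each germ-cell cluster (x axis), in percent of the highest cluster mean of the same gene (y axis). Maxima stand in cluster 1 for Sohlh1, cluster 2 for Lhx8, cluster 3 for Dmrt1 and cluster 4 for Dmrtb1. Those of Figla and Dmrtc2 stand in clusters 8 and 11, and Sohlh2 is high in clusters 2 and 10. Libraries of clusters 3 and 4 overlap for Dmrt1 and Dmrtb1, and cluster 8 is a side branch of cluster 7.

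Genes of most similar course were sought for each factor over the same 22 points, among 6183 genes with a mean of at least 50 CPM in a cluster. *Gnb4* (r = 0.99), *Gsr* and *Eif4ebp1* came closest to *Sohlh1*, and *Csnk1e* (r = 0.99) and *Apbb1* to *Dmrt1*. *Cyba* (r = 0.96), *Myh6* and *Asb9* shared the maximum of *Lhx8* in cluster 2. *Zfp667* (r = 0.95), *Acat2* and *Rhd* came closest to *Figla*, *Mlf2* (r = 0.94), *Usp7* and *Mospd3* to *Dmrtb1*, and *Exd2* (r = 0.99), *Dtx3* and *Ccdc158* to *Dmrtc2*. For *Sohlh2* the nearest genes were less alike: *Ube2r2* (r = 0.76), *Nedd8* (r = 0.75) and *Ndufa8* (r = 0.72).

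The genotypes were compared with edgeR on UMIs summed per library and cluster, and a gene was called where the Benjamini-Hochberg adjusted p was under 0.05 and the log2 fold change, wild-type over *Meioc*-null, was over 0.1 in size. Of 60 tests of a factor in a cluster, 8 were called, namely 2 with the wild-type level and 6 with the *Meioc*-null level on top, all in clusters 7 to 9. In clusters 1 to 6 edgeR and DESeq2 each called 0 of 41 tests, with 8 and 4 of them at an unadjusted p under 0.05. Of all genes tested there, edgeR called 0%, 0.00632%, 0.0933%, 0.0475%, 0% and 1.08% in clusters 1 to 6. In clusters 1 and 5, where edgeR called 0 genes, the unadjusted p was under 0.05 for 294 and 646 genes, and DESeq2 made 5 and 9 calls. Calls of 2 of 7 factors in cluster 7 stood beside 13.7% of all genes (5.36% higher in wild-type, 8.38% in *Meioc*-null cells). Cluster 8 had 3 of 6 factors called, beside 31.5% (14.4% and 17.1%), and cluster 9 had 3 of 6, beside 44.0% (20.4% and 23.6%), so a call in these clusters was common among all genes.

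With the littermate pair as a block, 16 of 60 tests were called, 8 of them not called without it. Of the 16, 7 had the wild-type and 9 the *Meioc*-null level on top, and 5 lay in clusters 1 to 6. The background was then higher too, at 1.59% of genes in cluster 3, and at 3.39%, 5.66%, 29.0%, 44.9% and 51.8% in clusters 5 to 9. Data were also simulated for cluster 7, with no littermate effect and no block in the fit. Of genes changed by a log2 fold of 0.5, 27% were recovered, and of those changed by 1, 84%. The changed genes all had well over the 20 UMIs needed for a test, so recovery at low counts was not measured. Cells of different stages can differ in RNA content, and a lower CPM in a summed sample cannot be told apart from a smaller share of expressing cells.

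**Figure D3:**
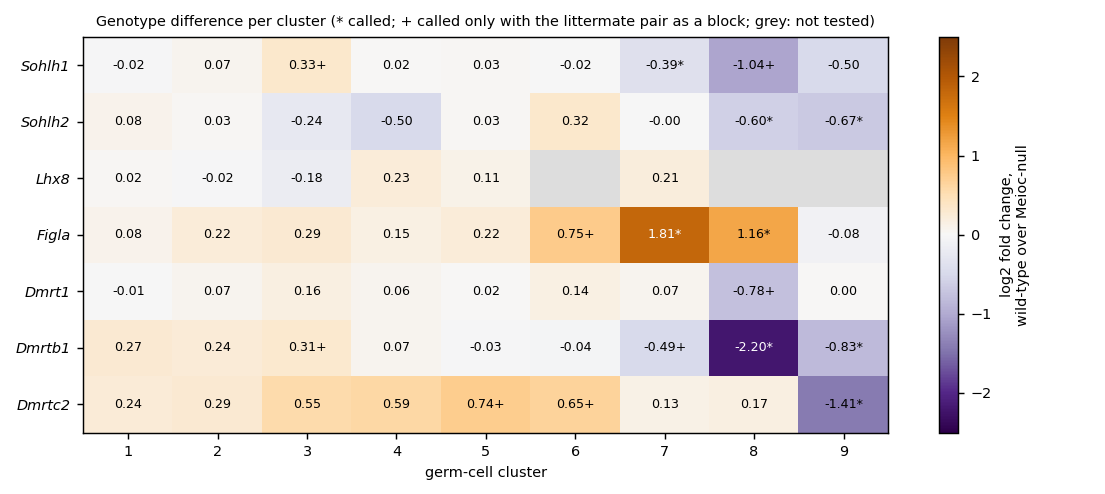
Log2 fold change (colour and number), wild-type over Meioc-null, of each factor (rows) in clusters 1 to 9 (columns), from edgeR on 2 libraries per genotype. Stars mark the 8 calls, plus signs the 8 differences called with the littermate pair as a block and not without it, and grey cells are genes with under 20 UMIs in all; Figla in clusters 7 and 8 (1.81 and 1.16) stands opposite to Dmrtb1 in cluster 8 (-2.20) and Dmrtc2 in cluster 9 (-1.41).

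*Figla* was higher in wild-type than in *Meioc*-null cells at meiotic entry. In cluster 7 it was at 54.8 and 57.7 CPM in wild-type libraries, against 13.2 and 19.8 CPM in the *Meioc*-null ones. The groups did not overlap, and the fold was 3.51 (log2 1.81 ± 0.23 SE, edgeR adjusted p = 0.00296). In cluster 8 it was at 59.9 and 59.4 CPM against 23.3 and 34.2 CPM, again without overlap (log2 1.16 ± 0.19 SE, edgeR adjusted p = 0.00047). Leaving out each library in turn gave log2 fold changes of 1.48 to 2.21 in cluster 7 and 0.87 to 1.57 in cluster 8, all called. In cluster 9 the genotypes overlapped, at 5.67 and 6.86 against 7.19 and 6.58 CPM.

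In the unnamed cluster 6 *Figla* was at 15.1 and 18.4 CPM against 10.6 and 9.71 CPM, which was called only with the littermate pair as a block (log2 0.75 ± 0.22 SE, edgeR adjusted p = 0.12 without and 0.00382 with it). The genotype difference was larger in cluster 7 than in cluster 6 by 1.11 on the log2 scale (± 0.21 SE, edgeR interaction, adjusted p = 0.000118), where 7.82% of all genes changed their difference. Without *Meioc*-null replicate 1 the change was 0.75 and was not called (adjusted p = 0.107). Thinned to 5000 UMIs, 7.63% and 9.38% of *Meioc*-null cells of cluster 7 held a *Figla* UMI, against 25.6% and 25.9% of wild-type cells. That cluster held 740 and 735 wild-type and 1663 and 1186 *Meioc*-null cells.

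**Figure D4:**
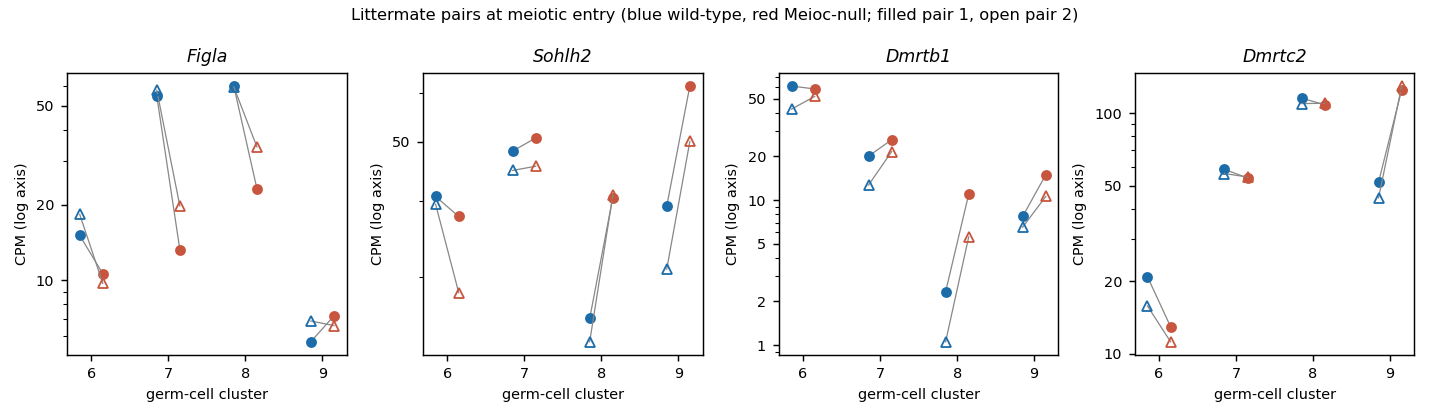
CPM (y axis, log scale) of Figla, Sohlh2, Dmrtb1 and Dmrtc2 in clusters 6 to 9 (x axis). Blue points are wild-type and red points Meioc-null libraries, lines join the pups of a littermate pair, filled circles are pair 1 and open triangles pair 2; in both pairs the Meioc-null level is lower for Figla in clusters 7 and 8, and higher for Sohlh2 and Dmrtb1 in clusters 8 and 9 and for Dmrtc2 in cluster 9.

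*Sohlh1* was higher in *Meioc*-null cells in cluster 7, at 58.4 and 50.5 CPM in wild-type libraries, against 79.3 and 68.2 CPM in the *Meioc*-null ones, without overlap (log2 -0.39 ± 0.10 SE, edgeR adjusted p = 0.0278, and 0.00147 with the littermate pair as a block). The call was lost without any 1 library, with log2 fold changes of -0.43 and -0.34 without wild-type replicates 1 and 2 and -0.35 and -0.42 without *Meioc*-null replicates 1 and 2, and also with library totals in place of TMM scaling (-0.44) or DESeq2 (-0.38). In cluster 8 *Sohlh1* was at 6.61 and 4.49 against 17.2 and 7.74 CPM, not called (log2 -1.04, adjusted p = 0.051) but called with the block (-0.98, adjusted p = 0.00395), without *Meioc*-null replicate 2 (-1.45, adjusted p = 0.000809) and under 5 other alternatives, at -1.10 to -1.80 (adjusted p = 0.000247 to 0.0441). In cluster 3 the direction was the other way, at 145 and 129 against 106 and 117 CPM, called only with the block (log2 0.33, adjusted p = 1.00 without and 0.0252 with it).

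*Sohlh2* showed no detectable difference in cluster 7, at 48.2 and 44.9 against 50.7 and 45.6 CPM (log2 -0.0013 ± 0.11 SE). It was higher in *Meioc*-null cells in cluster 8, at 25.7 and 23.5 against 40.5 and 40.8 CPM (log2 -0.60 ± 0.17 SE, edgeR adjusted p = 0.0115), and in cluster 9, at 39.2 and 30.9 against 61.7 and 50.05 CPM (log2 -0.67 ± 0.14 SE, edgeR adjusted p = 0.000109). The groups overlapped in neither cluster. The call in cluster 9 held without each library in turn (-0.52 to -0.78). The call in cluster 8 was lost without wild-type replicate 1 (-0.60), wild-type replicate 2 (-0.59) or *Meioc*-null replicate 2 (-0.51) and with DESeq2 (-0.57). From cluster 7 to cluster 8 the genotype difference changed by -0.67 (± 0.18 SE, edgeR interaction, adjusted p = 0.00426), beside 11.8% of all genes, and this was lost without wild-type replicate 2 (-0.60) or *Meioc*-null replicate 2 (-0.53).

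*Dmrtb1* had the largest called fold of the 7 genes, at low levels. In cluster 8 it was at 2.33 and 1.06 CPM in wild-type libraries, from 6 and 4 UMIs, and at 10.99 and 5.58 CPM in *Meioc*-null libraries, from 51 and 31 UMIs (log2 -2.20 ± 0.51 SE, edgeR adjusted p = 0.00408). The wild-type values were no higher than those of peritubular myoid-like cells, and the *Meioc*-null values were above them. In cluster 9 it was at 7.71 and 6.50 against 14.9 and 10.6 CPM (log2 -0.83 ± 0.25 SE, edgeR adjusted p = 0.00631). Without wild-type replicate 2 both calls were lost (-1.72 in cluster 8 and -0.72 in cluster 9), and without *Meioc*-null replicate 1 that in cluster 9 (-0.66). The call in cluster 9 was also lost with DESeq2 (-0.80) and with the listed genes allowed in the clustering (-0.18, adjusted p = 0.50), where the matched cluster held only 55.8% of the wild-type cells of cluster 9.

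Earlier differences in *Dmrtb1* were called only in some fits. In cluster 7 it was at 20.1 and 12.7 against 26.0 and 21.6 CPM, called with the littermate pair as a block (log2 -0.49, adjusted p = 0.0864 without and 0.00259 with it), without wild-type replicate 1 (-0.79, adjusted p = 0.0439), with no low-count filter (-0.52, adjusted p = 0.0146) and with the variable genes called different left out of the placing (-0.66, adjusted p = 0.0247). In cluster 3 it was at 159 and 118 against 131 and 97.8 CPM, called with the block (log2 0.31, adjusted p = 1.00 without and 0.0493 with it). The genotype difference changed by -0.45 from cluster 6 to 7 (edgeR interaction, adjusted p = 0.0456), by -1.77 from 7 to 8 (adjusted p = 0.00408) and by 1.55 between the branches 8 and 9 (adjusted p = 0.0156), the last beside 21.1% of all genes. The first was lost without wild-type replicate 1 (-0.52), wild-type replicate 2 (-0.45) or *Meioc*-null replicate 1 (-0.38), and also with doublets kept (-0.27), the size factors of DESeq2 (-0.41), 15 nearest cells (-0.43) or the listed genes allowed (-0.42). The others were lost without wild-type replicate 2 (-1.47 and 1.00) or *Meioc*-null replicate 1 (-1.32 and 1.16).

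*Dmrtc2* had the smallest adjusted p of the 7 genes. In cluster 9 it was at 51.7 and 44.5 CPM in wild-type libraries, against 125 and 129.6 CPM in the *Meioc*-null ones (log2 -1.41 ± 0.13 SE, edgeR adjusted p = 3.12e-11), and the call held without each library in turn (-1.30 to -1.51). Whether cells of both genotypes stood at the same point within cluster 9 was not tested. In cluster 8 the genotypes overlapped, at 115 and 109.6 against 108 and 109.9 CPM. Between clusters 8 and 9, which are separate branches from cluster 7, the genotype difference differed by -1.44 (± 0.16 SE, edgeR interaction, adjusted p = 4.6e-12). A *Dmrtc2* UMI was found in 42.2% and 35.0% of wild-type and 72.7% and 83.1% of *Meioc*-null cells of cluster 9, and in 24.5% and 19.4% against 46.7% and 48.2% of cells thinned to 5000 UMIs.

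In clusters 5 and 6 the *Dmrtc2* levels of the wild-type libraries lay above those of the *Meioc*-null libraries. In cluster 5 it was at 19.3 and 13.7 against 9.16 and 10.8 CPM, called with the littermate pair as a block (log2 0.74, adjusted p = 0.773 without, and 0.71, adjusted p = 0.0038 with it), without wild-type replicate 2 (0.91, adjusted p = 0.0419) or with no low-count filter (0.74, adjusted p = 0.0241). In cluster 6 it was at 20.9 and 15.8 against 13.0 and 11.2 CPM, called with the block (log2 0.65, adjusted p = 0.155 without, and 0.66, adjusted p = 0.00705 with it). In cluster 7, at 58.3 and 56.1 against 53.8 and 54.2 CPM, it was not called (log2 0.13, adjusted p = 0.502), but was with the variable genes called different left out of the placing (0.41, adjusted p = 0.0368).

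*Dmrt1* and *Lhx8* were called in no cluster. In cluster 7 *Dmrt1* was at 112 and 96.1 against 109.7 and 95.2 CPM. In cluster 8 it was at 20.2 and 8.98 against 37.5 and 15.8 CPM, overlapping between genotypes but higher in the *Meioc*-null pup of both pairs. It was called there with the littermate pair as a block (log2 -0.78, adjusted p = 0.37 without, and -0.73, adjusted p = 0.00138 with it), without *Meioc*-null replicate 2 (-1.22, adjusted p = 3.57e-05) or with no low-count filter (-0.83, adjusted p = 0.0083). In cluster 9, at 10.7 and 7.75 against 14.2 and 4.77 CPM, it was called without *Meioc*-null replicate 1 (0.84, adjusted p = 0.0428).

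Sertoli cells also express *Dmrt1*, and the summed level of 6 Sertoli markers in cluster 8 was 89.1 and 57.6 CPM in wild-type libraries, against 104.9 and 46.2 CPM in the *Meioc*-null ones. Over clusters 7 to 9 these markers summed to 46.2 to 104.9 CPM and were higher in replicate 1 than in replicate 2 of both genotypes, and their part in the results was not tested. *Lhx8* was at 29.1 and 35.5 against 32.3 and 34.8 CPM in cluster 2 (log2 -0.02 ± 0.15 SE), and it was not tested in clusters 6, 8 and 9, where it had under 20 UMIs in all.

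Over all germ cells together, 1 of 7 factors was called, beside 11.1% of all genes, or 9.29% in its direction. *Dmrtc2* was at 53.6 and 43.4 CPM in wild-type libraries, against 31.8 and 29.3 CPM in the *Meioc*-null ones (log2 0.75 ± 0.11 SE, edgeR adjusted p = 0.00391), the reverse of its direction in cluster 9. Clusters 10 and 11, with 0 *Meioc*-null cells under the main placing, held the wild-type maximum of *Dmrtc2*. Without *Meioc*-null replicate 1 the value was 0.74 and was not called (adjusted p = 0.0537). *Figla* was called with the littermate pair as a block (log2 0.29, adjusted p = 0.431 without, and 0.30, adjusted p = 0.0288 with it), beside 25.9% of all genes. *Dmrtb1* was called without wild-type replicate 2 (0.46, adjusted p = 0.0184). Under 5% mitochondrial UMIs, *Sohlh1* (-0.71, adjusted p = 0.0277) and *Dmrt1* (-0.58, adjusted p = 0.0173) were called with the *Meioc*-null level on top. Of 15451 genes tested there, 4726 were called, 1378 of them in that direction. The 2 pools differed in stage, since cluster 11 then held 196 of 627 and 193 of 855 wild-type cells and 0 of 389 and 0 of 393 *Meioc*-null cells.

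Other genes of these pathways were counted in the same fits, from 8 lists. Of 7 E proteins, the dimer partners of helix-loop-helix factors, and their ID inhibitors, 1 was called in each of clusters 7, 8 and 9, in each case *Id4*, an inhibitor known from spermatogonial stem cells, beside 13.7%, 31.5% and 44.0% of all genes. With the littermate pair as a block, 2 genes of the list were higher in each direction in cluster 7, beside 29.0% of all genes. In cluster 9 *Id4* was at 5.67 and 4.45 CPM in wild-type libraries, against 1.44 and 0.387 CPM in the *Meioc*-null ones (log2 2.55 ± 0.50 SE, edgeR adjusted p = 6.9e-05). The median log2 fold change of the list there was 0.14, beside -0.03 over all genes.

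Of 6 tested genes linked to SOHLH or DMRT1 in male germ cells, 2 were higher in wild-type cells in cluster 7 and 4 were higher in *Meioc*-null cells in cluster 9, with medians of 0.16 and -1.52, beside 5.36% and 23.6% of all genes in those directions. *Stra8*, the retinoic acid target that DMRT1 represses, was at 73.5 and 80.7 CPM in wild-type libraries, against 279 and 238 CPM in the *Meioc*-null ones in cluster 3 (log2 -1.70 ± 0.14 SE, edgeR adjusted p = 3.85e-05). In cluster 9 it was at 50.5 and 53.7 against 781 and 722 CPM (log2 -3.82 ± 0.19 SE, edgeR adjusted p = 1.92e-18), and whether cells of the 2 genotypes stood at the same point within that cluster was not tested. *Gm4969*, which encodes the STRA8 partner MEIOSIN, was higher in wild-type cells in cluster 7, at 88.3 and 101 against 64.3 and 69.7 CPM (log2 0.54), and lower in cluster 9, at 22.9 and 29.0 against 102.5 and 89.0 CPM (log2 -1.82). *Crabp2*, a retinoic acid binding protein gene, also differed both ways, at 9.87 and 8.49 against 4.50 and 4.56 CPM in cluster 7 (log2 1.06) and 0 and 0.624 against 9.17 and 7.09 CPM in cluster 9. *Tbx1* was higher in wild-type cells in cluster 8, at 25.3 and 18.7 against 11.8 and 11.5 CPM (log2 1.02).

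Most of 12 oocyte genes linked to FIGLA, LHX8 or SOHLH were at or near 0 where *Figla* was highest, and 4 of them had enough UMIs to be tested in clusters 7 and 8. *Zp2*, a zona pellucida gene, was at 0 CPM in all 4 libraries in cluster 7, which allows up to 0.325 and 0.359 CPM in wild-type libraries at 3 UMIs. *Zp3* was at 8.46 and 9.57 against 5.88 and 6.59 CPM there and was called with the littermate pair as a block, not without it (log2 0.58, adjusted p = 0.118 without and 0.0156 with it), as was *Taf4b*, a TFIID subunit (log2 0.28 without and 0.27 with it, adjusted p = 0.117 and 0.00913). *Nobox*, an oocyte homeobox gene, was higher in *Meioc*-null cells in cluster 8, at 3.89 and 3.96 against 15.3 and 15.65 CPM (log2 -1.84), and in cluster 9, at 0.227 and 1.34 against 20.1 and 19.7 CPM (log2 -4.27 ± 0.34 SE, edgeR adjusted p = 1.62e-12). *Taf4b* was higher in wild-type cells in cluster 8, at 390.04 and 412 against 254.7 and 251 CPM (log2 0.79), and *Gdf9*, an oocyte growth factor, in cluster 9, at 4.31 and 5.61 against 1.08 and 1.16 CPM (log2 2.18).

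In cluster 9, where 23.6% of all genes were higher in *Meioc*-null cells and 44.0% were called, 2 of 4 other DMRT genes tested were higher in *Meioc*-null cells, *Dmrtc1a* at 3.17 and 1.16 against 7.55 and 6.32 CPM (log2 -1.87) and *Dmrt3* at 0.453 and 0.356 against 1.62 and 1.55 CPM (log2 -1.96). Of 5 LIM cofactors and LIM homeobox genes tested there, 2 were higher in *Meioc*-null cells, against the same background, *Ldb2* at 0.68 and 0.891 against 7.37 and 7.998 CPM (log2 -3.17) and *Lmo4* at 2.27 and 2.14 against 7.01 and 3.10 CPM (log2 -1.12). Among 5 subunits of the SCF ubiquitin ligase, of which 1, 2 and 1 were called in clusters 7, 8 and 9 beside 13.7%, 31.5% and 44.0% of all genes, *Fbxw11*, a substrate receptor, was higher in *Meioc*-null cells in clusters 7, 8 and 9, with 17.5 and 13.6 against 39.7 and 35.3 CPM in cluster 7 (log2 -1.22 ± 0.14 SE, edgeR adjusted p = 0.000216). *Cul1*, the scaffold subunit, was higher in wild-type cells in cluster 8, at 619 and 599 against 435 and 427 CPM (log2 0.62).

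Of 8 other spermatogonial transcription factors tested in cluster 9, 1 was higher in wild-type and 3 were higher in *Meioc*-null cells, beside 20.4% and 23.6% of all genes, with a median of 0.04. *Foxo3* was at 8.39 and 6.32 against 31.1 and 19.7 CPM (log2 -1.79 ± 0.21 SE, edgeR adjusted p = 1.31e-08) and *Rhox13* at 166 and 158.1 against 244 and 273 CPM (log2 -0.67). *Etv5* was higher in wild-type cells in cluster 8, at 7.78 and 7.92 against 2.15 and 2.16 CPM (log2 1.98). Of 8 meiotic transcription factors, 5 were higher in wild-type and 1 was higher in *Meioc*-null cells in cluster 9, beside the same shares of all genes, with a median of 0.61. *Tbpl1* was at 139 and 129.5 against 66.4 and 81.0 CPM (log2 0.86), *Tcfl5* at 52.8 and 67.1 against 37.8 and 28.5 CPM (log2 0.91) and *Rfx2* at 40.1 and 26.8 against 19.4 and 14.8 CPM (log2 0.95). *Mybl1*, which drives pachytene genes, was the exception in cluster 9, at 139 and 159 against 254.5 and 254 CPM (log2 -0.75 ± 0.14 SE, edgeR adjusted p = 4.14e-05). In cluster 8, 3 of the 8 were higher in wild-type and 1 was higher in *Meioc*-null cells, beside 14.4% and 17.1% of all genes. The 1 was *Tbpl1*, at 26.1 and 24.6 against 42.2 and 34.5 CPM (log2 -0.47, edgeR adjusted p = 0.0445), the reverse of its direction in cluster 9.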

How the data were processed

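Single-cell RNA-seq of P15 testes (10x 3′ chemistry) gave 4 libraries, 2 per genotype. Per the labels and the study's methods, the deposited matrices of UMI counts per gene and barcode were made by the authors with Cell Ranger 4.0.0 on the mm10 (GRCm38) reference, with no further normalization; Seurat is also named. Sequencing depth was 158291903 to 190455307 UMIs per library, which limits precision for genes with few UMIs; counting error is only part of the error between animals. The 7 genes and the 8 other lists were chosen with earlier results of these data known.

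Barcodes with more than 1000 detected genes and under 10% mitochondrial UMIs were kept, and 9.59% to 13.2% of them were removed as doublets by simulated-doublet scores in scanpy 1.11.5, because the automatic threshold marked only 1.77% to 4.54%. Germ-cell clusters were told from somatic ones by marker counts, with limits set after the clusters were seen. Wild-type germ cells were clustered on variable genes without the listed genes (lowest resolution with at least 10 clusters), ordered by a tree, and *Meioc*-null germ cells took the cluster of their 30 nearest wild-type cells. UMIs were summed per library and cluster.

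The main test was edgeR 4.0.16 (quasi-likelihood, TMM) in R 4.3.3 on these counts, for genes with at least 20 UMIs, with Benjamini-Hochberg adjustment over all genes of a cluster. A call needed an adjusted p under 0.05 and a log2 fold change over 0.1 in size. Changes of the genotype difference between consecutively numbered clusters were tested as interactions with library as a block; clusters 8 and 9 are separate branches from cluster 7, and 9 against 7 was not tested. Same-numbered libraries are littermates, per the labels, and their deviations from the genotype means correlated at 0.349 to 0.661 in the 9 clusters, so the fit with the pair as a block is given where it changes a call. DESeq2 1.42.0, other scalings, filters, placings and left-out libraries were tried. The main and interaction fits were checked on simulated counts, and the fit with the pair as a block was not.

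All 7 factors are named. For each, the 3 genes of highest Pearson correlation of log2(CPM + 1) are given (1 of them is not reported here), and of each list the called genes with the 4 smallest adjusted p over clusters. Genes outside the rule, *Zp2* and *Zp3*, were chosen after their values were seen. Promoter sequences are from RefSeq.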

Additional observations from a re-analysis of the deposited data

Results flagged for a closer look

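Genotype differences (log2, wild-type over *Meioc*-null) that differed between consecutively numbered clusters by edgeR's interaction test were found 8 times in 56 tests, beside 7.82%, 11.8% and 21.1% of all genes from cluster 6 to 7, 7 to 8 and 8 to 9, which held all 8; clusters 8 and 9 are separate branches from cluster 7. From cluster 6 to 7 the difference in *Figla* changed by 1.11 and that in *Dmrtb1* by -0.45. From cluster 7 to 8 the changes were -1.77 for *Dmrtb1*, -0.73 for *Figla* (adjusted p = 0.00273, lost without wild-type replicate 2 at -0.61) and -0.67 for *Sohlh2*. Between the branches 8 and 9 they were 1.55 for *Dmrtb1*, -1.44 for *Dmrtc2* and -1.12 for *Figla* (adjusted p = 0.000651, called without each library in turn, but lost at -0.90, adjusted p = 0.404, with the listed genes allowed in the clustering, where the matched clusters held 100% and 55.8% of the wild-type cells of clusters 8 and 9).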

How the results depend on the processing

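Calls within clusters numbered 8 of 60 tests. They were 16 with the replicate block, 5 with DESeq2, which lost *Sohlh1* in cluster 7, *Sohlh2* in cluster 8 and *Dmrtb1* in cluster 9, 5 of 47 with at least 8 clusters, where clusters 4 and 5, and 7 and 8, were each 1 merged cluster, and 5 to 8 without each library in turn. Under the other alternatives they numbered 6 to 12. Over all germ cells 1 factor was called, 2 with the replicate block, 3 under 5% mitochondrial UMIs, and 0 to 2 without each library. Genes called there numbered 2193 of 19772 in the main fit, 5125 of 19772 with the block and 4726 of 15451 under 5% mitochondrial UMIs. Changes between clusters numbered 8, but 5 of 42 tests with the merged clusters, and 4 to 10 without each library. All 7 maxima stayed in their cluster except that 6 did with at least 8 clusters (*Dmrtb1* was highest in cluster 3, above merged clusters 4 and 5, and *Figla* in merged clusters 7 and 8), with the listed genes allowed in the clustering (*Figla*), under 5% mitochondrial UMIs (*Sohlh1*), in cells thinned to 5000 UMIs (*Sohlh2*) and, over a range of 6 to 7, without a wild-type library. Of 1564 values of single factors, 1491 stayed called or stayed uncalled, where values called in neither fit counted whatever their direction. Of the others, 32 lost and 40 gained a call, and 1 reversed: *Dmrtc2* in cluster 8 was -0.37 with the listed genes allowed, against 0.17. That cluster then held 408 and 873 wild-type cells, against 235 and 366. The cause was not tested. With library totals in place of TMM the median of all genes in cluster 8 moved from -0.04 to -0.17, and genes called higher in wild-type cells there were 1108 of 3394 against 1605 of 3513. Genes called ranged over the alternatives from 702 to 3942 in cluster 7 (1869), 1774 to 5006 in cluster 8 (3513) and 3693 to 6780 in cluster 9 (5753). With 1 library left out, the lone library of a genotype is assumed to vary like the other genotype. Under 5% mitochondrial UMIs only cluster 5 kept at least 50 cells in each library (clusters 7 to 9 kept 3 to 103), so calls within clusters are not counted there; over all germ cells *Dmrtc2* was then at 3.04 on the log2 scale, against 0.75. Low depth limits *Lhx8* after cluster 5 and *Sohlh1*, *Dmrt1* and *Dmrtb1* from cluster 8 on.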
